A study of Mus musculus with 24 samples.

Results

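A set of 10 genes for costimulatory and activation molecules of the B cell surface were followed in cultured mouse B lymphocytes with and without depletion of Spt5, part of the factor DSIF, which travels with RNA polymerase II and controls its pausing. The genes were Icosl, Cd80, Cd86, Cd40, Tnfrsf13b, Tnfrsf13c, Cd83, Cd69, Icam1 and Cd44, chosen by name, and all 10 were found among the 14106 genes of the count table. Each of them passed the filter on low counts, which kept 12024 genes. Primary B cells from mouse spleen were activated in culture with IL4 and LPS for 60 h, and the drug 4-hydroxytamoxifen was present at 2 µM over the last 32 h, after an initial 28 h without it. The 3 Spt5-depleted cultures had 1 floxed and 1 null copy of the Spt5 gene (Supt5h Fl/-) and 1 copy of a tamoxifen-activated Cre recombinase at Rosa26 (Rosa26 ERT2-cre/+). The 3 control cultures, called WT, carried the same recombinase with no targeted Spt5 allele and received the same drug. Rosa26 is active in most cell types, so the recombinase was not restricted to B cells. The labels use both mature and immature for the cells and give no age. Nothing in them ties a library to a mouse of its own, so p-values cover only the spread among these libraries, and that spread may be technical.

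A B cell that has bound antigen needs signals through its surface to and from helper T cells. CD40 receives CD40 ligand from the T cell. CD80 and CD86 offer the B7 signal to CD28 or CTLA-4, and ICOS ligand offers a related signal to ICOS. TACI (Tnfrsf13b) and the BAFF receptor (Tnfrsf13c) take survival and differentiation signals, TACI from the cytokines BAFF and APRIL and the BAFF receptor from BAFF. CD69, CD83, CD44 and ICAM-1 are used as markers of activation, and the last pair also hold cells to matrix or to each other.

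The poly(A) RNA libraries held 23340978 to 25649611 counts in WT and 17306549 to 21441575 in depleted cells. Supt5, the targeted gene, had 159.9, 159.6 and 192.1 CPM in WT and 10.6, 9.18 and 13.6 CPM in depleted libraries (CPM, the read count scaled to library size with TMM factors). Its mean fell from 170.5 ± 18.7 to 11.1 ± 2.26 CPM (SD, n = 3 each; edgeR adjusted p = 1.26e-10). Over all 12024 tested genes 62.4% passed an edgeR adjusted p under 0.05, with 3823 higher (31.8%) and 3681 lower (30.6%) in depleted cells. With library totals in place of TMM scaling, 4962 were higher and 2694 lower, and the median log2 fold change moved from 0.0047 to 0.164. The 8 B cell markers examined were all present, the least abundant, Ebf1, at 73.7 to 93.0 CPM. Cd22 and Blnk were among those that fell (log2 fold change -1.48 and -0.74), and 0 rose by edgeR, where 0 also rose at an unadjusted p under 0.05, by DESeq2 and by limma-voom. With library totals 3 of the 8 were higher and 3 lower. Xist RNA stood at 468 to 914.8 CPM in WT and 1.00 to 1.73 CPM in depleted libraries. The Y-linked gene Ddx3y had 0.042, 0 and 0 CPM in WT and 39.3, 39.6 and 44.1 CPM in depleted libraries. All WT libraries thus carry the RNA pattern of female mice and all depleted libraries that of male mice, so sex and Spt5 depletion cannot be told apart in any comparison below. None of the 6 genes with a promoter entry lies on a sex chromosome.

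Of the 10 genes 9 differed between the groups, in opposite directions. Icosl, Icam1, Cd69 and Cd40 rose, and Cd44, Tnfrsf13c, Cd83, Tnfrsf13b and Cd86 fell, while Cd80 did not pass. The 4 higher and 5 lower stand beside the background of 31.8% and 30.6% of all genes. The 2 groups did not overlap for 9 of the 10 genes, where this holds for 67.5% of tested genes. The median log2 fold change of the 10 was -0.28, against 0.0047 for all genes, and with library totals -0.12 against 0.164. A change of at least 2-fold was seen for 1 rising gene, Icosl, and 2 falling genes, Cd44 and Tnfrsf13c, against 9.87% and 7.63% of all genes. In bulk RNA, fewer cells that express a gene and less RNA per cell cannot be told apart.

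**Figure D1:**
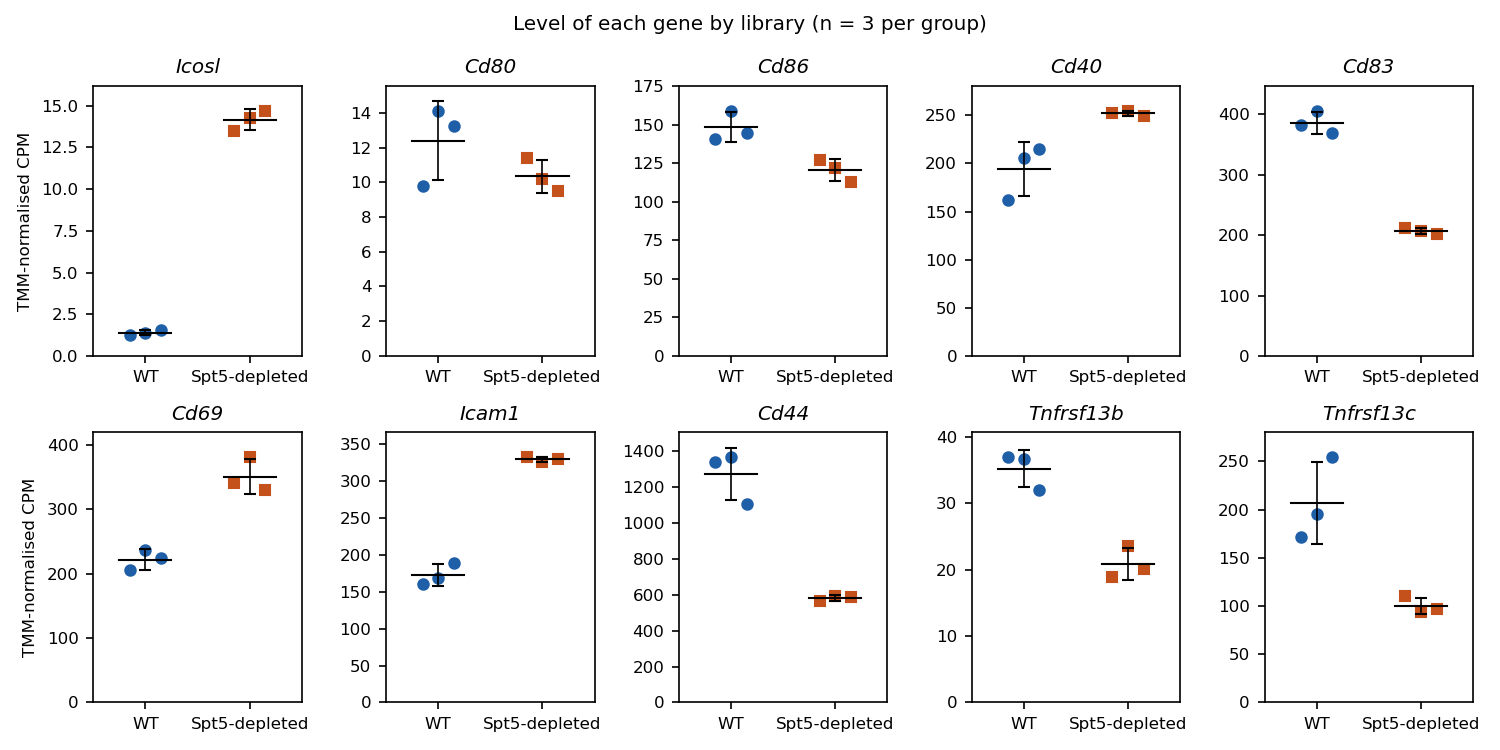
TMM-normalised CPM of each gene in the 3 WT libraries (blue circles) and the 3 Spt5-depleted libraries (orange squares), with the mean and SD as black bars and every axis starting at 0. Cd80 is the 1 panel in which the WT and depleted libraries overlap.

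Icosl encodes the ligand of ICOS and is the member that changed most. Its level was 1.26, 1.36 and 1.56 CPM in WT and 13.5, 14.3 and 14.7 CPM in the depleted libraries, which rest on 30, 30 and 38 counts against 242, 305 and 340. The lowest depleted library was far above the highest WT library, and the spread within each group was narrow. The rise was 10.1-fold (log2 fold change 3.34 ± 0.16 SE, 95% confidence interval 2.998 to 3.68, edgeR adjusted p = 5.15e-10). By log2 fold change Icosl was the 65th of the 12024 tested genes, so 0.532% of them rose further.

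The promoters of the member that rose most, Icosl, of Icam1, which rose next, and of Cd44, which fell furthest, are shown so that these opposite changes can be read beside the DNA. Each is the RefSeq window of 300 bases on GRCm38.p6, with 250 bases before the annotated start and 50 from it on, written along the gene. The counts were made on mm9, so only gene names link the windows to them. Entries were found for 6 of the 10 genes: Icosl, Cd80, Tnfrsf13b, Tnfrsf13c, Icam1 and Cd44. Capitals mark every match on either strand to 6 motifs, and no marked matches overlap. The motifs were the CCAAT box, the TATA box in the form TATAAA, the NF-kB site form GGAAATTCC, the longer kB consensus, and the STAT site forms TTCNNNGAA and, with a wider gap, TTCNNNNGAA. The Icosl window is chr10:78069118-78069417 on the + strand, that of Icam1 chr9:21015690-21015989 on the + strand, and that of Cd44 chr2:102901616-102901915 on the - strand.
Icosl: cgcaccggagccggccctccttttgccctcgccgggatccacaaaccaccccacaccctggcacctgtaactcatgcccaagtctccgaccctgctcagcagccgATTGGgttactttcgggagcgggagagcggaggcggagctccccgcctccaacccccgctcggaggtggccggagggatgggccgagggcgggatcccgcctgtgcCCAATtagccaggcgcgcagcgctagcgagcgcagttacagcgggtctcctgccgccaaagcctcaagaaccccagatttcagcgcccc
Icam1: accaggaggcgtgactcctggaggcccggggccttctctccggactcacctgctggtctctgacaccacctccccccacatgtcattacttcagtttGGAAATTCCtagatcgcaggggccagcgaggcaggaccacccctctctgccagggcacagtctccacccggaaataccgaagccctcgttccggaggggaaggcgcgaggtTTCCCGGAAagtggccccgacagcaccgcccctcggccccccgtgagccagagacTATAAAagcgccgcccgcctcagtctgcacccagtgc
Cd44: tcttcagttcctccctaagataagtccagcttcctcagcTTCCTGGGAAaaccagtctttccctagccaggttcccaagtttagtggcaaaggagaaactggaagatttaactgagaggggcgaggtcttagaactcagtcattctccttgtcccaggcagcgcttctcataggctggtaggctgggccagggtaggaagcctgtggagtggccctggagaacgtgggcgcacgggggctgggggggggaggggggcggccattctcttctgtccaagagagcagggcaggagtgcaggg

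In the Icosl window CCAAT was matched at bases 106 to 110 on the opposite strand and 212 to 216 on the gene's strand, a motif that 37.4% of the 32851 promoter windows hold. Icam1 held GGAAATTCC at bases 98 to 106, which 0.317% of all windows hold, TTCNNNGAA at 209 to 217 (8.30% of windows) and TATAAA at 264 to 269 (13.6%). That TATAAA match lies after the annotated start, with its first base at position 14. Cd44 held TTCNNNNGAA at bases 40 to 49, as do 6.95% of windows. The kB consensus, in 4.51% of all windows, was not found in any of the 6 windows. The number of CpG dinucleotides was 26 for Icosl, 19 for Icam1, 12 for Tnfrsf13c, 8 for Tnfrsf13b, 6 for Cd44 and 3 for Cd80. The median of all windows is 7. A link between CpG number and the direction of change was not tested. The motif matches are letters in a window and do not show binding.

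The B7 pair moved little beside Icosl. Cd86, the B7 molecule that is abundant on activated B cells, had 140.9, 159.1 and 144.7 CPM in WT and 127.1, 122.0 and 112.6 CPM in depleted libraries. All depleted values were below all WT values, by a small margin. The fall was 1.23-fold (log2 fold change -0.30 ± 0.09 SE, edgeR adjusted p = 0.00801). It did not pass with library totals alone (-0.14, edgeR adjusted p = 0.164) or without Spt5-depleted replicate 3 (-0.25, edgeR adjusted p = 0.0508).

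Cd80, whose product binds the same T cell receptors as CD86, had 9.81, 14.1 and 13.3 CPM in WT and 11.4, 10.2 and 9.52 CPM in depleted libraries. WT replicate 1 was as low as the depleted libraries, so the groups overlapped. The log2 fold change was -0.26 (95% confidence interval -0.57 to 0.05, edgeR adjusted p = 0.131), which leaves room for a fall as large as that of Cd86 and for a slight rise. Without WT replicate 1 it was -0.41 and passed (edgeR adjusted p = 0.0144). The ratio of Cd80 to Cd86 counts, which does not depend on how libraries are scaled, was 0.0696, 0.0888 and 0.0916 in WT and 0.0896, 0.0833 and 0.0846 in depleted libraries. No difference in this ratio was detectable (log2 difference 0.05 ± 0.13 SE, n = 3 each, two-sided exact permutation p = 0.90, where 0.10 is the smallest p that 3 against 3 allows), and its sign turned without WT replicate 1 (-0.07).

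Receptors for help and survival signals went apart. Cd40, the receptor through which T cell help reaches the B cell, had 162.2, 205.4 and 214.8 CPM in WT and 252.3, 254.9 and 249.7 CPM in depleted libraries. The depleted libraries were nearly equal to each other and above the more scattered WT libraries. The rise was 1.30-fold (log2 fold change 0.38 ± 0.10 SE, edgeR adjusted p = 0.00456).

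Tnfrsf13c, the BAFF receptor that mature B cells need to survive, had 171.3, 195.0 and 254.6 CPM in WT and 110.0, 94.3 and 96.9 CPM in depleted libraries. WT replicate 3 was the highest, and the lowest WT library was still above every depleted library. Its level fell 2.06-fold (log2 fold change -1.04 ± 0.13 SE, 95% confidence interval -1.33 to -0.76, edgeR adjusted p = 1.84e-05). Tnfrsf13b, which encodes TACI, a receptor of both BAFF and APRIL, had 36.9, 36.6 and 32.0 CPM in WT and 18.9, 23.5 and 20.0 CPM in depleted libraries. Again the groups did not overlap. This fall was 1.69-fold (log2 fold change -0.76 ± 0.11 SE, edgeR adjusted p = 2.95e-05).

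Whether TACI and BAFF receptor mRNA fell by different amounts was asked with their count ratio. Tnfrsf13b to Tnfrsf13c stood at 0.216, 0.188 and 0.125 in WT and 0.172, 0.249 and 0.207 in depleted libraries, with overlapping ranges. The log2 difference of 0.27 ± 0.28 SE (n = 3 each, two-sided exact permutation p = 0.50) was within the spread between libraries. Tnfrsf17, the gene of the related receptor BCMA, which marks plasma cells, was near the limit of detection at 0.69 ± 0.32 and 1.15 ± 0.33 CPM (SD, n = 3 each; edgeR adjusted p = 0.0955).

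The activation markers Cd69 and Cd83 changed in opposite directions. CD69 is a lectin-like protein that appears early after activation and retains lymphocytes in tissue by binding the sphingosine phosphate receptor S1PR1. Cd69 had 205.1, 237.5 and 223.9 CPM in WT and 340.7, 381.5 and 329.9 CPM in depleted libraries, with a clear gap between the groups. The rise was 1.58-fold (log2 fold change 0.66 ± 0.09 SE, edgeR adjusted p = 1.90e-05). S1pr1 itself rose from 19.2 ± 4.77 to 33.1 ± 4.36 CPM (SD, n = 3 each; edgeR adjusted p = 0.00194; log2 fold change 0.78).

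CD83 is carried by activated B cells and mature dendritic cells and is known to hold MHC class II and CD86 at the surface by opposing the ubiquitin ligase MARCH1. Cd83 had 382.0, 406.4 and 369.3 CPM in WT and 212.1, 206.7 and 201.5 CPM in depleted libraries. Depleted libraries were tightly grouped and far below WT. The fall was 1.87-fold (log2 fold change -0.90 ± 0.08 SE, edgeR adjusted p = 3.43e-07). March1 also fell, from 31.8 ± 8.13 to 7.61 ± 1.06 CPM (SD, n = 3 each; edgeR adjusted p = 3.29e-06; log2 fold change -2.07).

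The adhesion molecules also parted. Cd44, the receptor for the matrix sugar hyaluronan, had 1340, 1367 and 1104 CPM in WT and 563.5, 591.1 and 589.1 CPM in depleted libraries. Every depleted library was well below the lowest WT library. Cd44 fell 2.19-fold, the largest fall of the 10 genes (log2 fold change -1.13 ± 0.10 SE, 95% confidence interval -1.33 to -0.92, edgeR adjusted p = 1.78e-07). Among all tested genes 5.96% had a lower log2 fold change.

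Icam1 encodes the ligand of the integrin LFA-1, through which B and T cells adhere. It had 160.8, 169.0 and 189.0 CPM in WT and 332.6, 326.3 and 329.8 CPM in depleted libraries, which barely differed from each other. Its level rose 1.91-fold (log2 fold change 0.93 ± 0.09 SE, 95% confidence interval 0.75 to 1.12, edgeR adjusted p = 4.19e-07). The ratio of Cd44 to Icam1 counts dropped from 8.34, 8.09 and 5.84 in WT to 1.69, 1.81 and 1.79 in depleted libraries. That is 4.16-fold lower (log2 difference -2.06 ± 0.17 SE, n = 3 each) with no overlap, at the smallest two-sided exact permutation p the design allows, 0.10. The ratio combines the fall of Cd44 and the rise of Icam1 from the same counts, so it is not separate evidence. The genes of the LFA-1 chains did not pass. Itgal had 346.4 ± 1.92 and 346.6 ± 6.30 CPM and Itgb2 145.8 ± 8.50 and 153.2 ± 9.08 CPM (SD, n = 3 each; edgeR adjusted p = 0.993 and 0.481).

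**Figure D2:**
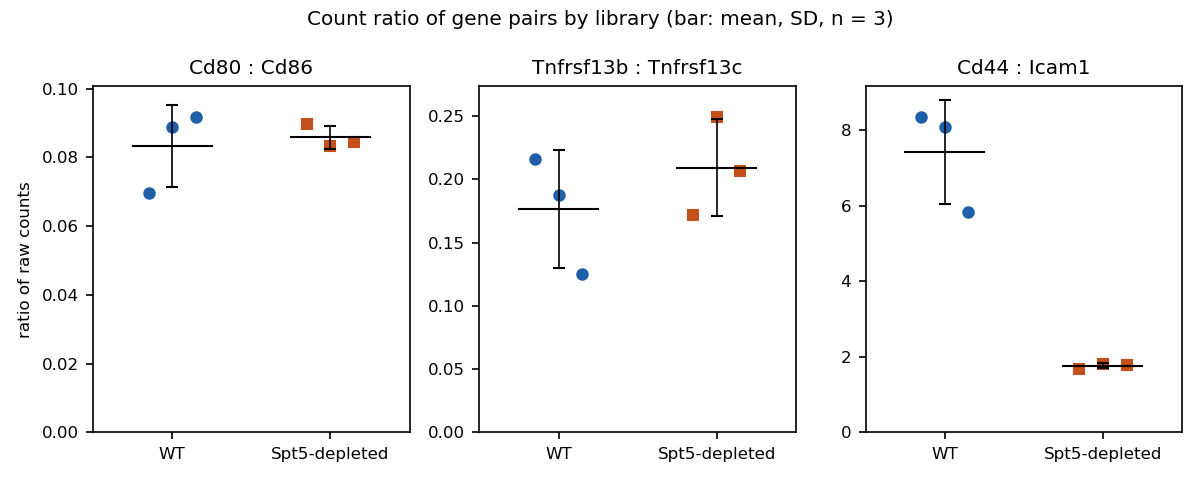
Ratio of raw counts within each library for 3 gene pairs, with WT as blue circles, Spt5-depleted as orange squares and black bars for the mean and SD of 3 libraries; axes start at 0. Cd44 to Icam1 is 5.84 to 8.34 in WT and 1.69 to 1.81 in depleted libraries, and the other pairs overlap.

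**Figure D3:**
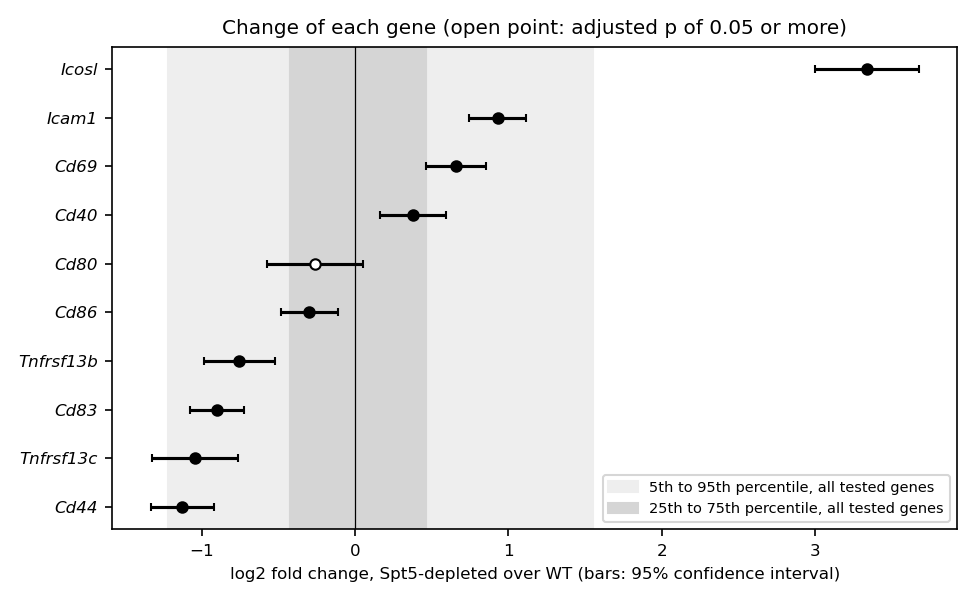
Log2 fold change (Spt5-depleted over WT) of each gene with its 95% confidence interval, over grey bands for the middle of all tested genes (25th to 75th percentile, -0.43 to 0.46, and 5th to 95th, -1.22 to 1.55). Icosl at 3.34 lies outside both bands, Cd80 (open point) did not pass, and the other genes lie within the wider band.

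The authors' deposited table gives the same signs for all 10 genes, with log2 fold changes from -1.14 for Cd44 to 3.33 for Icosl. In the authors' deposited table Cd80 is again the gene above 0.05, with an adjusted p of 0.174.

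Genes around these molecules were examined by lists. Among their binding partners and related receptors, 8 of 11 listed genes were tested, and 2 rose, 1 fell and 5 were not called, where 31.8% and 30.6% of all tested genes rose and fell. Their median log2 fold change was 0.18, against 0.0047 for all genes. Ctla4, the inhibitory receptor for CD80 and CD86, fell from 42.6 ± 12.4 to 9.24 ± 2.19 CPM (SD, n = 3 each; edgeR adjusted p = 8.32e-05; log2 fold change -2.19 ± 0.25 SE). Cd28, the stimulatory receptor for the same ligands, had 3.13 ± 0.84 and 3.77 ± 0.73 CPM (edgeR adjusted p = 0.287), and Icos 0.555 ± 0.048 and 0.332 ± 0.125 CPM (edgeR adjusted p = 0.145; SD, n = 3 each). The second rise beside that of S1pr1 was that of Itgam, an integrin chain of myeloid cells, from 2.04 ± 0.40 to 3.43 ± 1.33 CPM (SD, n = 3 each; edgeR adjusted p = 0.0315). The Itgam groups overlapped, and its call was lost with limma-voom (adjusted p = 0.0575) and without WT replicate 1 or 2 or Spt5-depleted replicate 2 or 3 (edgeR adjusted p from 0.0578 to 0.142). Cd40lg, Tnfsf13 and Tnfsf13b were not analysed here. With library totals 4 partner genes were higher.

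Of 16 tested genes for other B7, TNF and SLAM family members and related surface proteins, 5 rose and 5 fell, near the 31.8% and 30.6% of all tested genes that did so (median log2 fold change -0.05, and 0.11 with library totals). Cd52, a small glycoprotein of lymphocytes, rose from 992.7 ± 32.2 to 1966 ± 194 CPM (SD, n = 3 each; edgeR adjusted p = 5.30e-07). Tnfsf9, which encodes the 4-1BB ligand, and Pdcd1lg2, which encodes PD-L2, rose with log2 fold changes of 1.15 and 0.59. Tnfrsf8, the gene of CD30, fell from 58.5 ± 3.31 to 19.9 ± 1.86 CPM (SD, n = 3 each; edgeR adjusted p = 9.60e-09). Cd200 and Slamf6, genes of surface proteins with immune receptors as partners, fell as well (log2 fold change -1.07 and -0.53). Cd276 was below the filter and Vtcn1 was not analysed here.

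Of 18 tested signalling genes downstream of CD40 and the BAFF receptor, 6 were higher and 7 lower, near the background of 31.8% and 30.6% of all tested genes. Their median log2 fold change was 0.0095, and 0.17 with library totals. Nfkb1, the p105 and p50 subunit gene of NF-kB, fell from 1178 ± 44.0 to 379.2 ± 0.914 CPM (SD, n = 3 each; edgeR adjusted p = 1.01e-09). Birc3 and Birc2 encode the paired ubiquitin ligases cIAP2 and cIAP1, and they moved apart, with log2 fold changes of -1.09 and 0.81. Chuk, the kinase IKK-alpha, fell (-0.70), and Rela (0.48) and Traf6 (0.60) rose. Map3k14, the kinase NIK of the non-canonical route that both CD40 and the BAFF receptor use, did not pass (log2 fold change 0.04, edgeR adjusted p = 0.722). Camlg was not analysed here.

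Of 6 genes for the turnover and shedding of such surface proteins, 3 rose and March1 fell, beside 31.8% and 30.6% of all tested genes (median log2 fold change 0.24). Adam10, a protease known to cut CD44 and TACI among others, rose from 131.0 ± 20.5 to 194.6 ± 3.83 CPM (SD, n = 3 each; edgeR adjusted p = 0.000257). Adam17, a related sheddase, rose by 0.35 on the log2 scale, on a row whose name has a suffix, OVL, possibly for overlapping genes. Mmp14, a membrane protease, rose from 0.85 ± 0.17 to 1.94 ± 0.59 CPM (SD, n = 3 each; edgeR adjusted p = 0.0029).

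In the list of adhesion molecules and cytoskeletal linkers, 4 of 12 tested genes rose and 4 fell, again near 31.8% and 30.6% of all tested genes (median log2 fold change 0.06). Cd47, the signal that restrains phagocytes, and Ezr, which ties CD44 to actin, fell (log2 fold change -1.16 and -0.49). Icam2, a further LFA-1 ligand, rose by 0.45 on the log2 scale, and Itga4 and Itgb1, the chains of the integrin VLA-4, by 0.56 and 0.32. The row for Itga4 carries the overlap suffix, and Vcam1, the VLA-4 ligand, was below the filter.

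Among 10 other activation markers 2 rose and 5 fell, beside 31.8% and 30.6% of all tested genes (median log2 fold change -0.26, and -0.10 with library totals). Il4ra, the IL-4 receptor chain, fell from 588.3 ± 44.8 to 131.9 ± 3.60 CPM (SD, n = 3 each; edgeR adjusted p = 1.38e-10). Il2ra (CD25) and Fcer2a (CD23) fell with log2 fold changes of -1.51 and -1.57. Ccr7, the homing receptor for T cell zones, rose from 191.6 ± 26.2 to 660.8 ± 35.9 CPM (SD, n = 3 each; edgeR adjusted p = 3.90e-09), and Fas, the death receptor, rose by 0.34 on the log2 scale.

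**Figure D4:**
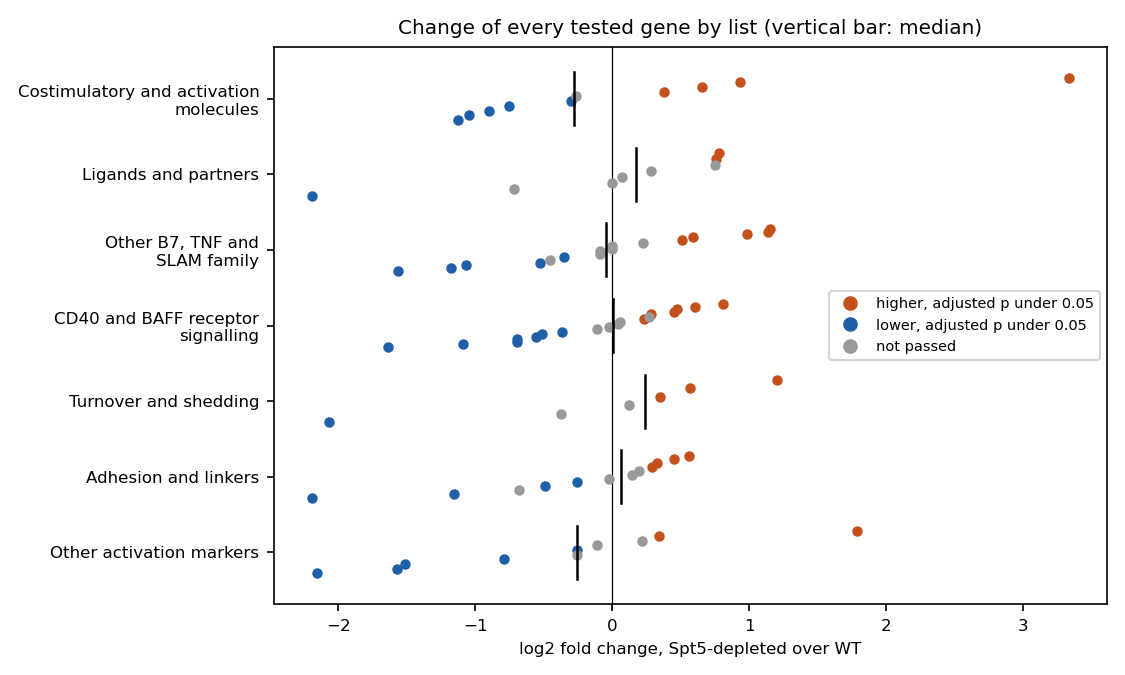
Log2 fold change of every tested gene in 7 lists, 1 point per gene, orange for higher and blue for lower at an edgeR adjusted p under 0.05 and grey for not passed, with a vertical bar at each list's median. The medians lie between -0.28 and 0.24, and each list holds genes on both sides of 0.

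Because dendritic cells and macrophages also carry these molecules, markers of other spleen cells were read in the same libraries. Of 9 macrophage marker names listed, of which Adgre1 is a newer name of Emr1, 5 were tested. Csf1r, Emr1 and Itgam, 3 of these, rose, with overlapping groups for each, and the Csf1r row carries the overlap suffix. Beside this count and those of the marker lists below, 31.8% of all tested genes rose and 30.6% fell. Summed over the list, macrophage markers stood at 21.4 to 29.95 CPM in WT and at 25.2, 56.2 and 43.5 CPM in depleted libraries, and Fcgr1 and Marco were below the filter. Depleted replicate 1 lay within the WT range for this sum and the other depleted libraries above it. Of 8 dendritic cell markers 4 were tested, and Xcr1 and Zbtb46 rose (log2 fold change 2.75 and 0.66) and Batf3 fell (-2.52). Their sum was 95.7 to 112.9 CPM in WT and 98.3 to 99.99 CPM in depleted libraries. Most of it came from Flt3, at 86.72 ± 6.87 and 82.15 ± 1.83 CPM (SD, n = 3 each). The sum thus mainly follows that gene and does not measure dendritic cell content. Itgax, at most 0.182 CPM in any library, and Cd209a, at most 0.335 CPM, were below the filter. Clec9a, Siglech, Ncr1, Ly6g and Hba-a1 were not analysed here. Of 8 T cell markers 7 were tested and 0 passed by edgeR, with 0 also at an unadjusted p under 0.05, 0 by DESeq2 and 1, which was lower, by limma-voom. Thy1, known to appear on mouse B cells treated with IL4 and LPS, had 148.3 to 189.1 CPM, and each other T cell marker at most 6.09 CPM. Markers of natural killer cells, granulocytes and red cells summed to at most 7.40 CPM in any library. The part of macrophage and dendritic cell markers in the changes of the 10 genes was not tested.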

How the data were processed

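The 6 RNA-seq libraries were used, and the 18 samples of other assays were not analysed here. Table columns named KO were matched by number to the samples titled Spt5dep. Trizol RNA went into a Lexogen SENSE library, per the labels' protocols. Tools named per the submitters' processing notes are featureCounts 1.5.0-p1, cutadapt 1.10, TopHat, Bowtie2 2.1.0 and DESeq2 1.10.1, and the build is mm9, with the annotation and strand setting not given in the sources used here. In the deposited table are unnormalised whole read counts per gene. Beside them are 2 columns of the authors, a log2 fold change and an adjusted p-value. Suffixes were removed from gene names; no row of the 10 genes carries one.

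Counts were filtered with filterByExpr, scaled by TMM (a scaling that takes most genes as unchanged) and compared with edgeR 4.0.16 (robust quasi-likelihood F test, two-sided) in R 4.3.3. Adjustment was by Benjamini-Hochberg over all 12024 tested genes, with 0.05 as the threshold; DESeq2 1.42.0 and limma 3.58.1 were alternatives. The F statistic gave the standard errors, and the common biological coefficient of variation was 0.098. The 3 count ratios were compared by exact permutation, with p-values not adjusted. Replicates differed by more than sampling noise (chi-square per degree of freedom 6.45 to 33.2). The 10 genes and the lists were chosen with earlier results of these data known. Named were all 10, Supt5 and, per list, up to 3 higher and 3 lower genes with the smallest p among those that passed; others were named after their values were seen, and some genes of the lists are not reported here. Counts are not per length. Where CPM of different genes are set side by side or summed, as for the markers, they compare reads and not transcript numbers.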

Additional observations from a re-analysis of the deposited data

How the results depend on the processing

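Each of the 10 genes was recomputed under 13 alternatives: 2 other scalings (DESeq2 size factors and library totals), 2 other filters (none, or 5 CPM on average), 2 other tools (limma-voom and DESeq2), a replicate block, and 6 fits that each left out 1 library. No gene of the 10 changed direction, and 127 of the 130 values kept their side of the threshold. The exceptions are those given above for Cd86 and Cd80. Every scaling used is relative to the other RNA of a library, so amounts of RNA per cell were not measured. Icosl ranged from 3.26 to 3.50 on the log2 scale, Cd44 from -1.23 to -0.97 and Cd40 from 0.26 to 0.54. Of 388 values for the 30 companion genes named by rule, 383 kept their call, and the other 5 are those of Itgam. Leaving out 1 library at a time, the log2 difference of the Cd80 to Cd86 ratio ran from -0.0722 (without WT replicate 1) to 0.13. That of Tnfrsf13b to Tnfrsf13c ran from 0.04 (without WT replicate 3) to 0.43, and that of Cd44 to Icam1 from -2.22 to -1.96.

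With the replicate number as a block, 4 of the 10 genes were higher and 5 lower, as without it, and 3755 and 3614 of all genes. Paired by number, the ratio differences were 0.05, 0.27 and -2.06 (exact sign-flip p = 1.00, 0.50 and 0.25, the last being the smallest that 3 pairs allow). Same-numbered libraries did not deviate together (correlations 0.0384, -0.0403 and -0.00504). With 3 libraries per group this cannot settle whether the numbers pair the samples. Depth limits Icosl in WT, with 30 to 38 counts, and Cd80, with 204 to 322 counts in each library.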
